A study of Homo sapiens with 6 samples.

Results

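Translation initiation and elongation factors were examined in Ago2 iCLIP libraries of human embryonic stem cells that carry a point mutation of Dicer. The members are the rows of the count table whose name begins with EIF1 to EIF6 or with EEF1 or EEF2. EIF4ENIF1 and names that end in P and a number, the usual form of pseudogene names, were left out. The name pattern matched 89 rows, 24 were left out and 65 remained, of 16199 rows in all. Of the 65 members, 62 are protein coding in RefSeq and 3 are noncoding (EIF1B-AS1, EIF2AK3-DT and EIF3J-DT). All 65 passed the filter on low counts. The letter of the rule also drops EIF4EBP1 and EIF4EBP2, which encode inhibitors of eIF4E, so their values are given apart from the members. Of the coding RefSeq genes that fit the name pattern, 5 had no row among the 16199 used. EEF1G, EEF2K and EIF3K were among them, and none was analysed here.

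All 6 libraries came from H1, an established embryonic stem cell line, and all cells were grown for 10 days without doxycycline; the labels do not say what doxycycline controls in these cells. The groups are wild-type cells, cells hemizygous for Dicer-S1344L and cells homozygous for Dicer-S1344L, with 2 libraries each, numbered 1 and 2. The labels write the mutant genotypes as pm/fs and pm/pm, that is, the point mutation over a frameshift allele and the point mutation on both alleles. For each library, 2 dishes of 15 cm were irradiated 2 times with ultraviolet light of 254 nm at 150 mJ/cm2, and RNA crosslinked to Ago2 was recovered by immunoprecipitation. Nothing in the labels says that replicates are separate cultures or clones, so p-values reflect only how far these libraries lie apart, and that spread may be technical. Without input RNA in these libraries, more Ago2 on a transcript and more of the transcript cannot be told apart, and neither can fewer cells of a type and less RNA per cell.

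Translation starts when eIF2 brings the initiator tRNA to the small ribosomal subunit, eIF3 and the eIF1 factors hold that subunit ready, and eIF4F (cap-binding eIF4E, scaffold eIF4G and helicase eIF4A) loads it on the capped mRNA. eIF5 and eIF5B then govern start codon commitment and subunit joining, after which eEF1A delivers aminoacyl-tRNAs and eEF2 moves the ribosome. Cells lower initiation mainly through kinases that phosphorylate eIF2 alpha and through proteins that sequester eIF4E. Ago2 carries the miRNAs that Dicer releases from hairpins, and miRNA-bound Ago2 lowers translation and stability of the mRNAs it pairs with.

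Many translation mRNAs begin with a terminal oligopyrimidine (TOP) tract, a C at the cap followed by a run of pyrimidines, which ties their translation to growth signalling. The starts below are shown as examples of members with a tract in the eIF2, eIF3, eIF4 and elongation factor groups. Each holds 12 bases before and 18 bases from the annotated start (RefSeq, GRCh38.p14, transcribed strand), with the tract in capitals; the last is a start without a tract.
EEF1A1, chr6:73521015-73521044, minus strand: gccgtgaacgttCTTTTTCgcaacgggttt
EEF2, chr19:3985446-3985475, minus strand: gacgtcagcgttCTCTTCCgccgtcgtcgc
EIF4B, chr12:53006444-53006473, plus strand: cctcatccgggtCTTTTgcgttctctttcc
EIF4A2, chr3:186783565-186783594, plus strand: gggcgccgctgtCTTTTCagtcgggcgctg
EIF3F, chr11:7987325-7987354, plus strand: cgcttccgcctcCTTCTTTCTCgacaagat
EIF3M, chr11:32583819-32583848, plus strand: cggcccagttccCTTTTCCggtcggcgtgg
EIF2S3, chrX:24054944-24054973, plus strand: gtgatttccttcCTCTTTTggcaacatggc
EIF2S3B, chr12:10505878-10505907, plus strand: gtgactttcttcCTCTTTTggcaacatggc
EIF4G1, chr3:184314594-184314623, plus strand: gtgcggggagccggaaatggttgtggacta

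A start was counted as TOP where the annotated first base was C and at least 4 further C or T followed without a break, on the transcribed strand only. By that definition 11 of the 52 members with a RefSeq start sequence had one (21.2%): EEF1A1, EEF2, EIF2A, EIF2D, EIF2S3, EIF2S3B, EIF3D, EIF3F, EIF3M, EIF4A2 and EIF4B. The same definition held for 5.24% of the 10692 protein-coding rows with a start sequence, and for 43 of 67 cytosolic ribosomal protein rows (64.2%). An annotated start a few bases from the true one would miss a tract, so a missing tract says only that these letters are not at this annotated start. EIF2S3 and its relative EIF2S3B had 28 of 30 identical bases in the printed windows, and 48 of 50 identical bases from the start onwards.

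The libraries held 38164848 to 52924532 counts each. All 10 pluripotent stem cell markers checked had rows, with a summed level of 9977 to 11958 CPM (counts scaled to the depth of each library, with edgeR's TMM factors). Of 10 fibroblast and stromal markers 7 had rows (647 to 896 CPM in all; COL3A1, LUM and DCN had none), of 8 neuroectoderm markers 6 (428 to 589 CPM; PAX6 and SOX1 had none), and of 8 mesendoderm names only MIXL1 (1.23 to 3.07 CPM). DICER1, the mutated gene, was at 169 and 126 CPM in wild-type, 118 and 96.4 CPM in hemizygous and 129 and 118 CPM in homozygous libraries; a gene count does not check a point mutation. No marker list held a call between genotypes. The stromal median was -0.44 in homozygous against wild-type cells (0 of 7 above 0) and 0.08 in hemizygous cells (4 of 7). The neuroectoderm median was 0.49 in hemizygous cells (6 of 6 above 0) and 0.10 in homozygous cells (3 of 6). For the pluripotency list it was 0.17 in hemizygous cells (10 of 10 above 0) and 0.08 in homozygous cells (7 of 10). At an unadjusted p under 0.05 in edgeR's test against wild-type, 3 of 6 neuroectoderm rows passed in hemizygous and 2 in homozygous cells. Of all rows, 0.87% and 2.69% did so. Of the stromal rows 0 and 1 passed, and of the pluripotency rows 0 in both. The part of these markers in the members' values was not tested.

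The members took a similar share of every library. They held 2.45% and 2.40% of all counts in the wild-type libraries, 2.34% and 2.45% in the hemizygous and 2.49% and 2.27% in the homozygous ones, so the groups overlapped. EEF1A1 alone held 39.5% of the members' counts and, together with EEF2, 55.5%. Counts were not divided by transcript length, so such shares say where counts fell, not how many transcripts there were. By mean level, 30 members lay above 100 CPM, 24 between 10 and 100 CPM and 11 below 10 CPM.

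Most members varied little across the 6 libraries. In 33 of 65 (50.8%) the highest library was under 1.25 times the lowest, against 22.5% of all rows. At 20 CPM or more it was 30 of 49 members against 36.3% of 7952 rows. At a limit of 1.5 times it was 73.8% of members against 56.5% of all rows, and 41 of 49 members against 76.9% of rows at 20 CPM or more. The steadiest was EIF3F, at 249 and 248 CPM in wild-type, 247 and 253 CPM in hemizygous and 252 and 249.8 CPM in homozygous libraries. The map of all members by library shows this evenness, and the few rows that break it.

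**Figure D1:**
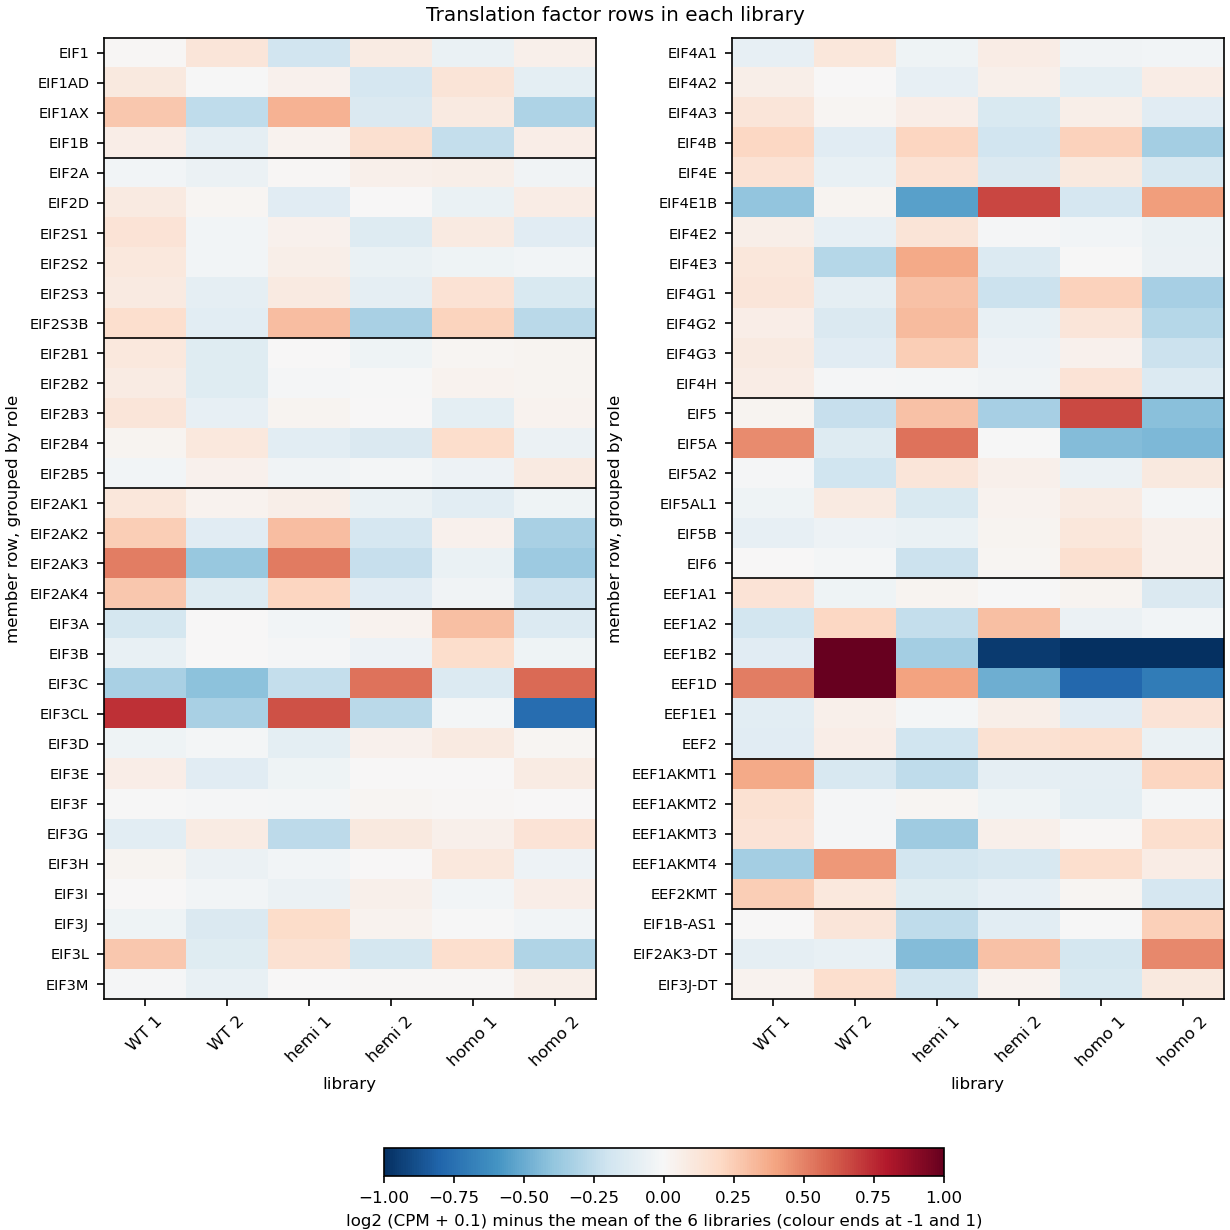
Each member row (vertical, grouped by role between the black lines; EIF1AY is not drawn) in each of the 6 libraries (horizontal; WT, wild-type; hemi, hemizygous; homo, homozygous; number, replicate number), coloured by log2 (CPM + 0.1) minus the mean of the 6 libraries. Most rows are pale, EEF1B2 and EEF1D are deep red in wild-type replicate 2, and EIF2AK3, EIF3CL and EIF1AX are redder in replicate 1 than in replicate 2 of every genotype.

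No member was called between genotypes by edgeR's quasi-likelihood test with Benjamini-Hochberg adjustment over all 16199 rows at an adjusted p of 0.05. This held for each mutant genotype against wild-type, for the average of the mutant genotypes against wild-type and for homozygous against hemizygous cells, and 0% of all rows were called in each of these comparisons too. The first 3 share the wild-type libraries. DESeq2 and limma-voom also called 0 members in each of the 4. At an unadjusted p of 0.05 the hemizygous against wild-type comparison held 1 member (1.54%, against 0.87% of all rows) and the homozygous against wild-type comparison 2 (3.08%, against 2.69%). The average of the mutant genotypes held 2 (3.08%, against 1.94%), and homozygous against hemizygous 1 (1.54%, against 0.765%).

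Counts of members whose libraries did not overlap between groups lay near the background. Both hemizygous libraries lay above both wild-type libraries in 5 members (7.69%, against 8.13% of all rows) and below in 7 (10.8%, against 9.21%). Both homozygous libraries lay above both wild-type ones in 7 members (10.8%, against 14.2%) and below in 8 (12.3%, against 13.6%). All 4 mutant libraries lay above the wild-type pair in 3 members (4.62%, against 4.29%) and below it in 3 (4.62%, against 4.58%). Both homozygous libraries lay above both hemizygous ones in 8 members (12.3%, against 11%) and below in 5 (7.69%, against 10.4%).

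The fitted differences were small. The median log2 fold change over the 65 members was -0.01 in hemizygous and -0.03 in homozygous cells against wild-type, -0.02 for the mean of both mutants, and 0.00 for homozygous against hemizygous cells; over all rows each median lay within 0.01 of 0. Above 0 were 30, 29, 28 and 34 of the 65 members in these comparisons. A difference under 0.3 on the log2 scale was seen in 60 members in hemizygous cells (92.3%, against 88.8% of all rows) and in 57 in homozygous cells (87.7%, against 79.2%).

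**Figure D2:**
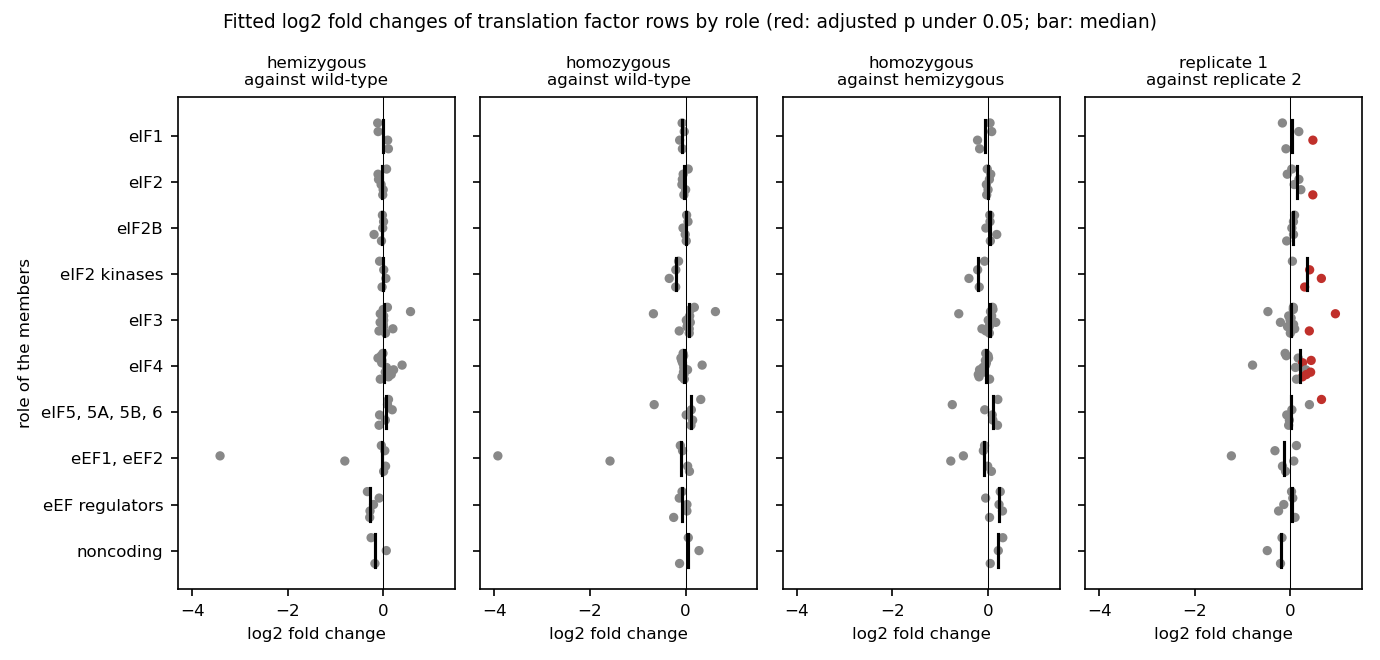
Fitted log2 fold change (horizontal) of each member, in rows by role (EIF1AY is not drawn), for 3 genotype comparisons and for replicate 1 against replicate 2; black bars are medians over the points drawn and red points have an adjusted p under 0.05. Points cluster at 0 in the genotype panels with EEF1B2 far to the left, and the 13 red points all lie right of 0 in the replicate panel.

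The factors eIF1 and eIF1A keep the scanning ribosome open until a start codon is met. The eIF1 group held EIF1, EIF1B, EIF1AX, EIF1AY and EIF1AD, grouped by name and not by a shown part in scanning. No member of it was called between genotypes. All 5 lay below 0 in homozygous against wild-type cells, with a median of -0.07, and 2 of 5 lay above 0 in hemizygous cells. EIF1AX, the X-linked eIF1A gene, was at 186 and 129 CPM in wild-type, 196 and 139.7 CPM in hemizygous and 164 and 124 CPM in homozygous libraries. Its genotypes overlapped, and in each of them replicate 1 was the higher library. EIF1AY, its Y-linked relative, is counted here and its level is not given.

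The eIF2 group held EIF2S1, EIF2S2, EIF2S3, EIF2S3B, EIF2A and EIF2D. It stayed close to wild-type levels, with medians of -0.03 in hemizygous and -0.04 in homozygous cells over 6 members. EIF2S1, the alpha subunit that the stress kinases phosphorylate, was at 91.8 and 82.1 CPM in wild-type, 86.1 and 76.4 CPM in hemizygous and 88.8 and 77.0 CPM in homozygous libraries. EIF2S3, the gamma subunit, was at 350.1 and 309 CPM, 351 and 308 CPM, and 364 and 296 CPM in the same order. EIF2S3B was at 14.1 and 11.6 CPM, 15.6 and 9.98 CPM, and 14.7 and 10.4 CPM. In each of the 3 the replicates of a genotype lay farther apart than the genotype means.

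For eIF2B, the exchange factor that reloads eIF2 with GTP, the 5 members had medians of -0.02 in hemizygous and 0.01 in homozygous cells. EIF2B5, its catalytic subunit, was at 63.6 and 66.9 CPM in wild-type, 63.3 and 64.0 CPM in hemizygous and 62.7 and 69.1 CPM in homozygous libraries. EIF2B4 was at 47.2 and 49.8 CPM, 43.0 and 41.8 CPM, and 52.1 and 44.3 CPM. The hemizygous libraries of EIF2B4 lay below all others, at a log2 fold change of -0.19 (SE 0.14) against wild-type with an unadjusted p of 0.204 in edgeR's test. In 3 of 5 members, against 11% of all rows, both homozygous libraries lay above both hemizygous ones: EIF2B4 and, named after their values were seen, EIF2B1 and EIF2B2. EIF2B1 was at 56.1 and 47.9 CPM in wild-type, 52.2 and 50.6 CPM in hemizygous and 52.7 and 52.9 CPM in homozygous libraries. EIF2B2 was at 35.8 and 31.2 CPM, 33.6 and 33.8 CPM, and 34.8 and 34.7 CPM. In both genes all mutant libraries lay between the wild-type ones. This overlap was examined with TMM scaling only.

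All 4 kinases of eIF2 alpha lay below 0 in homozygous against wild-type cells, with a median of -0.21, and 2 of 4 in hemizygous cells, with a median of -0.01. None was called. EIF2AK3 (PERK, the endoplasmic reticulum stress kinase) was at 64.9 and 34.8 CPM in wild-type, 65.1 and 38.8 CPM in hemizygous and 43.4 and 35.3 CPM in homozygous libraries. EIF2AK4 (GCN2, the sensor of uncharged tRNA) was at 289 and 219 CPM, 278 and 222 CPM, and 233 and 207 CPM. For EIF2AK2 (PKR, the double-stranded RNA sensor) the values were 138 and 108 CPM, 145 and 104 CPM, and 120.4 and 93.3 CPM. In these 3 kinases replicate 1 lay above replicate 2 in every genotype, and the genotypes overlapped. EIF2AK1, the heme-regulated kinase, was at 132 and 125 CPM, 127 and 117 CPM, and 113 and 118 CPM, so both homozygous libraries lay below both wild-type ones.

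None of the eIF3 subunits, the scaffold of the initiation complex, was called between genotypes. In homozygous against wild-type cells 11 of 13 were above 0, with a median of 0.08, and in hemizygous cells 10 of 13, with a median of 0.01. With library totals as the only scaling, 4 of 13 lay above 0 in hemizygous cells and the median was -0.00, while the homozygous count stayed at 11 under each of the 3 other scalings. Summed, the subunits held 0.336% and 0.345% of all counts in wild-type, 0.329% and 0.358% in hemizygous and 0.368% and 0.354% in homozygous libraries, so hemizygous replicate 1 was the lowest. Both homozygous libraries lay above both wild-type ones in 5 of 13 subunits, against 14.2% of all rows: EIF3C, EIF3D, EIF3F, EIF3J and EIF3M. Of these, EIF3D, EIF3F and EIF3M are named after their values were seen. The gap can be small: in EIF3F the lower homozygous library was at 249.8 CPM and the higher wild-type one at 248.9 CPM. Such counts were made with TMM scaling only.

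EIF3C, a core subunit (chr16:28688558-28735730, GRCh38), was at 25.8 and 24.3 CPM in wild-type, 27.4 and 47.0 CPM in hemizygous and 29.4 and 47.8 CPM in homozygous libraries. All 4 mutant libraries lay above the wild-type pair, but only the second library of each mutant stood clearly apart. The fitted log2 difference from wild-type was 0.57 (SE 0.31) for hemizygous cells, with an unadjusted p of 0.112 in edgeR's test, and 0.62 (SE 0.31) for homozygous cells, with an unadjusted p of 0.0882. Leaving out the second library of the mutant left 0.13 and 0.23, and without hemizygous replicate 1 the hemizygous difference was 0.92. EIF3CL (chr16:28379581-28426418) is a near-identical copy, so reads may be split between them; summed, the pair gave 29.6 and 26.0 CPM, 30.9 and 48.8 CPM, and 31.6 and 49.1 CPM. The summed row differed by 0.52 and 0.54, close to EIF3C alone.

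EIF3J, a loosely held subunit, was at 87.3 and 81.4 CPM in wild-type, 102 and 91.9 CPM in hemizygous and 89.4 and 88.4 CPM in homozygous libraries, a log2 fold change of 0.20 (SE 0.13) in hemizygous cells. EIF3A, the largest subunit, was at 593 and 671 CPM, 656 and 688 CPM, and 826 and 609.8 CPM, with overlapping genotypes and the widest gap within the homozygous pair. EIF3E was at 741 and 657 CPM, 687 and 713 CPM, and 713 and 750.3 CPM, with overlapping genotypes. Neither EIF3J nor EIF3A nor EIF3E was called.

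Cap-binding and helicase factors of the eIF4 group had medians of 0.02 in hemizygous and -0.04 in homozygous cells over 12 members. EIF4E, the cap-binding subunit, was at 115 and 99.0 CPM in wild-type, 115 and 94.2 CPM in hemizygous and 112 and 93.3 CPM in homozygous libraries. EIF4G1, the main scaffold, was at 658 and 569.9 CPM, 742 and 523 CPM, and 709.6 and 481 CPM. EIF4G2 (DAP5, a scaffold that lacks the eIF4E site) was at 1054 and 909 CPM, 1252 and 954 CPM, and 1092 and 825 CPM. In each of the 3 the genotypes overlapped and replicate 1 was the higher library. EIF4E3, a divergent eIF4E relative, was at 41.4 and 31.4 CPM, 49.9 and 34.9 CPM, and 38.2 and 36.8 CPM. Its hemizygous cells differed from wild-type by 0.22 (SE 0.22), without a call.

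The helicase EIF4A2 was at 969 and 934 CPM in wild-type, 880.0 and 968 CPM in hemizygous and 871 and 979 CPM in homozygous libraries. EIF4A3, the related helicase of the exon junction complex, was at 97.0 and 90.5 CPM, 93.6 and 80.2 CPM, and 92.8 and 82.4 CPM. EIF4A1 (chr17:7572825-7579006), the other eIF4A helicase, was at only 6.52 to 7.47 CPM, and rows of its pseudogenes held 74.4% to 79.1% of the counts of gene and copies together. How the authors assigned reads that fit several genes is not given in the sources used here, so levels of members with near-identical copies are uncertain. Summed with those copies, the EIF4A1 row was at 28.3 to 32.1 CPM, and its difference from wild-type was -0.05 in hemizygous and -0.01 in homozygous cells. None of the 3 helicases was called, and the genotypes overlapped in each, with or without the copies of EIF4A1.

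Of the late initiation factors, EIF5B, which joins the subunits, was at 274 and 281 CPM in wild-type, 278 and 295 CPM in hemizygous and 314 and 301 CPM in homozygous libraries. Both homozygous libraries were the highest, at a log2 fold change of 0.15 (SE 0.12) and an unadjusted p of 0.261 in edgeR's test. EIF6, which keeps the large subunit from joining early, was at 57.0 and 56.2 CPM, 49.0 and 57.6 CPM, and 63.5 and 59.0 CPM. Both its homozygous libraries lay above the other 4, by 0.20 (SE 0.14) on the log2 scale against hemizygous cells. EIF5, the GTPase activator of eIF2 (chr14:103334237-103345025), was at 140.4 and 118 CPM, 169 and 109.9 CPM, and 218 and 103 CPM. The highest and the lowest EIF5 library were both homozygous, and the fitted difference of 0.32 (SE 0.37) from wild-type was smaller than that spread.

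EIF5A, which relieves ribosomes stalled at difficult peptide bonds (chr17:7306999-7312463), was at 9.04 and 5.94 CPM in wild-type, 9.49 and 6.49 CPM in hemizygous and 4.78 and 4.73 CPM in homozygous libraries. Both homozygous libraries were the lowest, at -0.66 (SE 0.29) against wild-type and -0.75 (SE 0.29) against hemizygous cells, the latter with an unadjusted p of 0.0401 in edgeR's test. The first was -0.31 without wild-type replicate 1, and the second -0.45 without hemizygous replicate 1. The rows EIF5AL1, itself a member, and EIF5AP4 held 73.9% to 86.7% of the counts of EIF5A and these copies. With the 3 rows summed, the level was 37.2 and 36.5 CPM, 36.4 and 37.5 CPM, and 36.0 and 33.9 CPM. The summed row differed by -0.08 in both comparisons. EIF5A2, the less widely expressed relative, was at 10.5 and 9.24 CPM, 11.5 and 11.0 CPM, and 10.2 and 11.3 CPM, and was not called.

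EEF1B2 and EEF1D, both elongation factors, had the largest differences from wild-type of all 65 members, and neither was called. EEF1A1, which delivers aminoacyl-tRNA, was at 10400.4 and 9177 CPM in wild-type, 9623 and 9429.65 CPM in hemizygous and 9612 and 8522 CPM in homozygous libraries. EEF2, the translocase, was at 3526 and 3991 CPM, 3323 and 4239.5 CPM, and 4295 and 3655 CPM. In both the genotypes overlapped.

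EEF1B2, the exchange factor that recharges eEF1A with GTP (chr2:206159609-206162928), was at 4.69 and 65.0 CPM in wild-type, 3.99 and 2.56 CPM in hemizygous and 2.25 and 2.31 CPM in homozygous libraries. The counts were 243 and 2542, 153 and 135, and 102 and 94. Wild-type replicate 2 stood 13.9 times above the next library, and wild-type replicate 1 lay much nearer to the mutants than to its own replicate. The fitted log2 difference from wild-type was -3.42 (SE 1.06) for hemizygous cells, with an unadjusted p of 0.0159 in edgeR's test, and -3.93 (SE 1.1) for homozygous cells, with an unadjusted p of 0.00975. The adjusted p was 1.00 in both.

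Each wild-type library decided this value. Without wild-type replicate 2 the differences were -0.51 and -1.02, with no call. Without wild-type replicate 1 they were -4.31 (adjusted p = 0.0356 in edgeR's test) and -4.82 (adjusted p = 0.0199), and the average of the mutant genotypes differed by -4.57 (adjusted p = 0.00525), with 1 wild-type library assumed to vary like the other groups. Over the settings that kept every library the difference lay between -3.46 and -1.35 for hemizygous cells, without a call. The smallest, -1.35, came with the counts of EEF1B2P3 and EEF1B2P6 added, where the levels were 24.2 and 82.3 CPM, 21.3 and 20.5 CPM, and 21.0 and 20.2 CPM.

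The neighbouring gene NDUFS1 was also higher in wild-type libraries, but in the other one. NDUFS1, a subunit of mitochondrial complex I, has an annotated span (chr2:206114817-206159444) that ends 165 bases before that of EEF1B2, and it was at 10.6 and 2.43 CPM in wild-type, 1.62 and 1.61 CPM in hemizygous and 0.859 and 0.788 CPM in homozygous libraries. Its high library was wild-type replicate 1, at 4.37 times the next. The small nucleolar RNA genes SNORD51 and SNORA41 lie inside EEF1B2; their part in its count was not tested.

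EEF1D, the delta subunit of the same exchange complex, was at 7.50 and 11.1 CPM in wild-type, 6.96 and 3.70 CPM in hemizygous and 3.00 and 3.20 CPM in homozygous libraries. The wild-type pair was the highest and the homozygous pair the lowest, without overlap between any of the groups. The log2 fold change was -1.58 (SE 0.36) in homozygous cells, with an unadjusted p of 0.00361, and -0.80 (SE 0.35) in hemizygous cells, with an unadjusted p of 0.058, in edgeR's test. By unadjusted p it was number 15 of 16199 rows in the homozygous comparison, and DESeq2 gave it an adjusted p of 0.057 there. The hemizygous difference was -0.49 without wild-type replicate 2, -1.32 without hemizygous replicate 1 and -0.41 without hemizygous replicate 2. Counts of 130 to 433 a library limit its precision, and RefSeq names 8 pseudogenes after it.

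**Figure D3:**
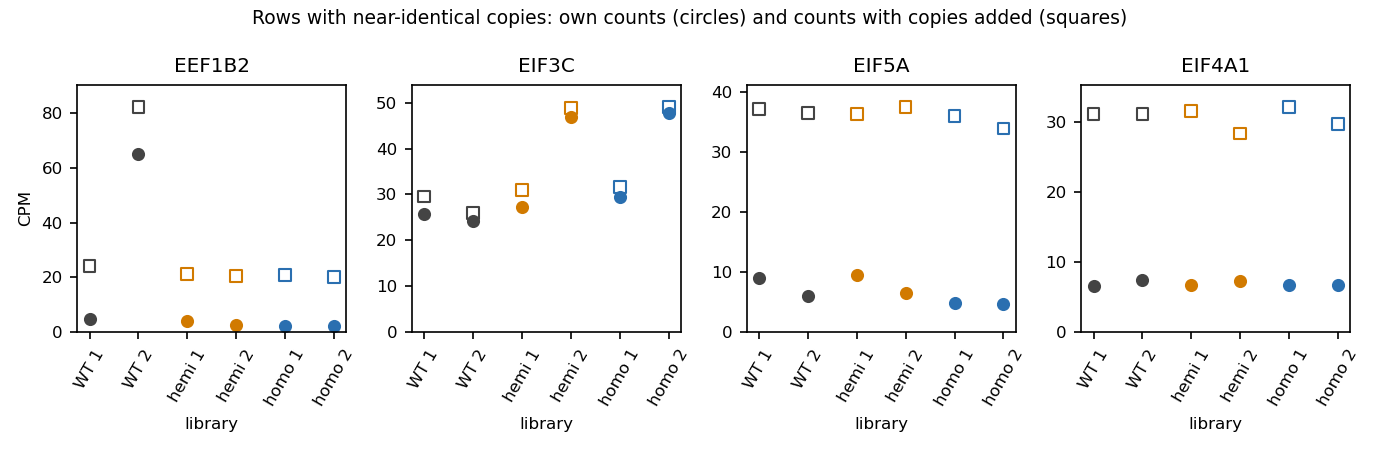
CPM (vertical, each panel with its own scale from 0) of EEF1B2, EIF3C, EIF5A and EIF4A1 in the 6 libraries (horizontal; grey, wild-type; orange, hemizygous; blue, homozygous), as counted (circles) and with the counts of near-identical copies added (squares). EEF1B2 is high in wild-type replicate 2, at 65.0 CPM, and the squares of EIF5A lie between 33.9 and 37.5 CPM in every genotype.

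The 5 methyltransferases that modify elongation factors were all below 0 in hemizygous against wild-type cells, with a median of -0.28, and 2 of 5 were above 0 in homozygous cells. EEF2KMT, which methylates eEF2, was at 22.5 and 20.4 CPM in wild-type, 17.4 and 17.8 CPM in hemizygous and 19.2 and 16.8 CPM in homozygous libraries. All 4 mutant libraries lay below the wild-type pair, at -0.28 (SE 0.15) and -0.25 (SE 0.15), with unadjusted p of 0.0987 and 0.136 in edgeR's test. The other 4, EEF1AKMT1 to EEF1AKMT4, lay at 12.8 CPM or less on average. The 3 noncoding rows were at 2.05 to 9.87 CPM on average, and none was called. EIF1B-AS1 was at 2.04 and 2.23 CPM, 1.69 and 1.88 CPM, and 2.03 and 2.41 CPM, so both hemizygous libraries were the lowest. EEF1AKMT1, the member with the lowest mean, was at 1.72 and 1.15 CPM, 1.07 and 1.21 CPM, and 1.21 and 1.53 CPM, with overlapping genotypes.

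Members were called between replicate numbers. In a fit of genotype plus replicate number, 13 members were called at an adjusted p under 0.05, all higher in replicate 1: 20% of the members, against 12% of all rows called higher in replicate 1. None was called lower, against 8.5% of all rows. The labels give these numbers without saying what they mark. All 13 were higher in replicate 1 in each genotype, which the fit that chose them from these same libraries favours. Over the whole list 24 members were higher in replicate 1 in all 3 genotypes (29.9% of all rows) and 10 were lower in all 3 (28.3%). Taken within 1 genotype at a time, the members' median difference was 0.10 for wild-type, 0.02 for hemizygous and 0.06 for homozygous cells.

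The split depended on the scaling. DESeq2 called 15 members, 13 higher and 2 lower (EEF1A2 and EIF3C), with 11.6% of all rows higher and 8.03% lower. Upper-quartile scaling called 12, 9 higher and 3 lower, with 7.99% of all rows higher and 13.3% lower. Library totals called 11, 9 higher and 2 lower, with 8.06% and 12.3% of all rows. All 9 higher calls of these 2 scalings were among the 13, and EIF2AK4, EIF4E, EIF4G2 and EIF4G3 were lost. Both also moved the median of all rows to -0.08 and -0.07, and that of the members to -0.01. Without both wild-type libraries 0 members and 0 of all rows were called by edgeR, and without both hemizygous libraries 0 members and 2 of all rows. Without both homozygous libraries 19 members were called, 15 higher and 4 lower, the 13 among them, with 20.3% of all rows higher and 18.3% lower.

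Most of the 13 were eIF4 factors or eIF2 alpha kinases. All 4 calls lost with upper-quartile scaling and with library totals (EIF2AK4, EIF4E, EIF4G2 and EIF4G3) were in these roles. Of all rows 12% were called higher in replicate 1. Of 12 eIF4 factors 5 were called higher in replicate 1, with a median of 0.21: EIF4B (0.44, SE 0.08, adjusted p = 0.0185 in edgeR's test), EIF4G1 (0.42, SE 0.09), EIF4G2 (0.34, SE 0.08), EIF4E (0.26, SE 0.07) and EIF4G3 (0.25, SE 0.07). EIF4B, the partner that stimulates eIF4A, was at 1002 and 801 CPM in wild-type, 1010.0 and 759.6 CPM in hemizygous and 1019.85 and 685 CPM in homozygous libraries. The replicate 1 libraries of EIF4B were nearly equal across genotypes, and the replicate 2 libraries lay lower in each.

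Of the 4 eIF2 alpha kinases 3 were called higher, against 12% of all rows, with a median of 0.35 over the 4. EIF2AK3 differed by 0.65 (SE 0.12, adjusted p = 0.0172 in edgeR's test), EIF2AK2 by 0.40 (SE 0.07, adjusted p = 0.0166) and EIF2AK4 by 0.30 (SE 0.08, adjusted p = 0.0377). EIF2AK1 was at 0.04 and was not called. EIF2AK3-DT, a noncoding gene that overlaps EIF2AK3 in RefSeq, went the other way, at 2.82 and 2.84 CPM in wild-type, 2.19 and 3.70 CPM in hemizygous and 2.64 and 4.23 CPM in homozygous libraries, and was not called. Whether strand was used in counting is not given in the sources used here, so overlapping genes may share reads.

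The remaining calls were EIF1AX (0.47, SE 0.07, adjusted p = 0.0126 in edgeR's test), EIF5 (0.65, SE 0.14), EIF2S3B (0.47, SE 0.11) and the eIF3 subunit rows EIF3L (0.40, SE 0.07) and EIF3CL (0.94, SE 0.17). EIF3L, a subunit at the edge of the complex, was at 240.4 and 183 CPM in wild-type, 222 and 177 CPM in hemizygous and 224 and 162 CPM in homozygous libraries. The other 11 eIF3 rows were not called, and the eIF3 median was 0.02, or -0.06 with upper-quartile scaling. EIF3CL was at 3.78 and 1.77 CPM, 3.52 and 1.84 CPM, and 2.20 and 1.28 CPM, while its copy EIF3C was at -0.47 (SE 0.16, adjusted p = 0.0813), and DESeq2 called it lower in replicate 1 (adjusted p = 0.0199). The summed row of the pair differed by -0.38 and was not called.

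**Figure D4:**
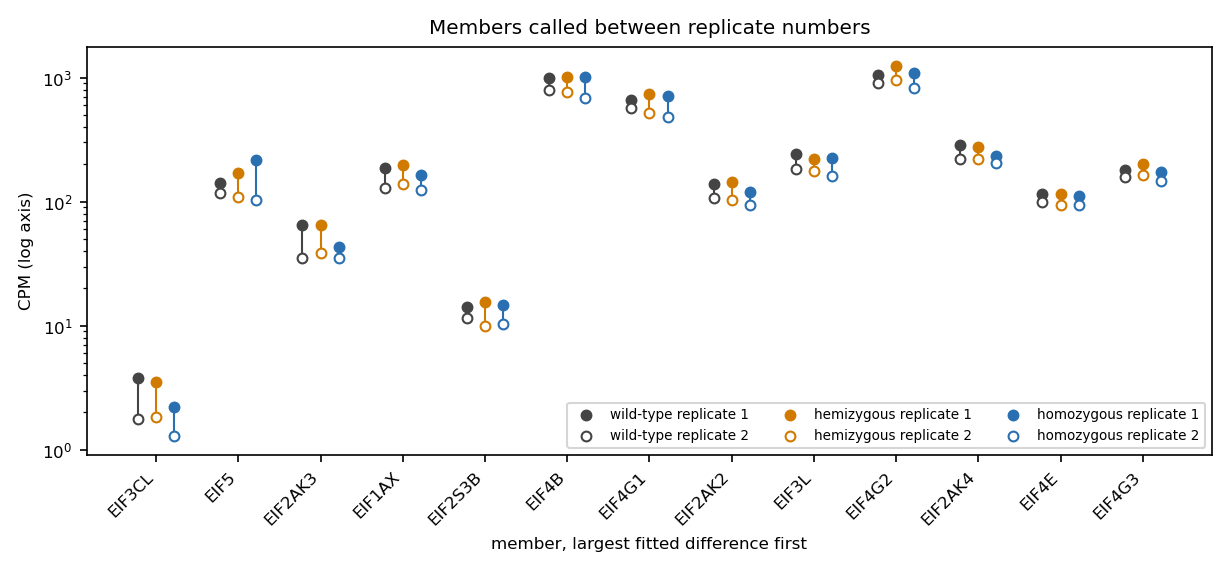
CPM (vertical, log axis) of the 13 members called between replicate numbers (horizontal, largest fitted difference first), with replicate 1 (filled) joined to replicate 2 (open) for wild-type (grey), hemizygous (orange) and homozygous (blue) cells. Every filled point lies above its open partner, in members chosen for this difference, and the genotypes overlap.

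The elongation factor group, put together by name, held EEF1A1, EEF1A2, EEF1B2, EEF1D, EEF1E1 and EEF2. It showed no call between replicate numbers, with a median of -0.13 over 6 members. EEF1A2, the tissue-restricted relative of EEF1A1, was at 56.1 and 73.7 CPM in wild-type, 54.1 and 78.6 CPM in hemizygous and 61.4 and 62.7 CPM in homozygous libraries. It differed by -0.32 (SE 0.11, adjusted p = 0.0717 in edgeR's test), and DESeq2, upper-quartile scaling and library totals each called it lower in replicate 1. EIF4E1B, the oocyte form of eIF4E, was at 1.02 and 1.41 CPM, 0.913 and 2.24 CPM, and 1.21 and 1.87 CPM, a difference of -0.79 (SE 0.23, adjusted p = 0.0504). It was called lower with each of the 3 other scalings and by limma-voom, and not by DESeq2. EIF3G, a peripheral eIF3 subunit, was at 154 and 175 CPM, 138 and 177 CPM, and 171 and 182 CPM, a difference of -0.21 (SE 0.08). It was not called in the main fit and was called lower with upper-quartile scaling. Without both homozygous libraries, EEF1A2, EIF4E1B and EIF3G were all called lower. These 3 were lower in replicate 1 in every genotype.

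Members with a TOP start had a median of -0.00 between replicate numbers, with 2 of 11 called (EIF4B and EIF2S3B), and those with another start 0.07, with 9 of 41 called. All these calls were higher in replicate 1, as were 12% of all rows. With 11 TOP members the 2 kinds of start cannot be ranked by such counts. EIF2S3 and EIF2S3B, whose printed starts differ at 2 of 30 bases, both lay higher in replicate 1, and only EIF2S3B was called. Between genotypes TOP members had medians of -0.00 in hemizygous and 0.00 in homozygous cells, and 0 of 11 were called.

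Other translation genes were set beside the members from lists of the pathway. Over all rows, 12% were called higher and 8.5% lower in replicate 1. Of 26 measured cytosolic factors outside the members, 8 were called higher and 1 lower in replicate 1, with a median of 0.17. Among them were the release factors ETF1 (0.32, SE 0.07) and GSPT1 (0.42, SE 0.08), the ribosome recycling factor ABCE1 (0.41, SE 0.07) and the GCN2 activator GCN1 (0.43, SE 0.09). The lower one was PDCD4, an inhibitor of eIF4A (-0.38, SE 0.10, adjusted p = 0.0372 in edgeR's test). Of 9 mitochondrial factors 2 were called higher, GFM1 and MTRF1L. Cytosolic ribosomal proteins lay on the other side, with 1 of 84 called higher and 17 called lower in replicate 1, and a median of -0.23. Lower in all 3 genotypes were 63 of them, against 28.3% of all rows.

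Between genotypes none of these 3 lists held a call in edgeR's test, and at an unadjusted p of 0.05 they held 1 row, a ribosomal protein, in the homozygous against wild-type comparison, and 1 for the average of the mutant genotypes. Ribosomal proteins lay above 0 in 77 of 84 rows in homozygous against wild-type cells (median 0.17) and in 23 of 84 in hemizygous cells (median -0.03). The fibroblast and stromal markers differed with replicate number as well, with a median of 0.44 over 7 rows (0.63 for wild-type, 0.83 for hemizygous and 0.05 for homozygous cells) and a summed level of 896 and 806 CPM, 865 and 724 CPM, and 647 and 693 CPM. The 10 pluripotency markers summed to 10472 and 9977 CPM, 11958 and 10790 CPM, and 11022 and 10421 CPM. The part of either in the members' differences was not tested.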

How the data were processed

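Ago2 iCLIP libraries of 3 genotypes, 2 each, were analysed from the raw counts per gene that the authors deposited; per the submitters' processing notes the build was hg38, with the aligner, counting rule, strand and multi-read handling not given in the sources used here. The table held 16199 rows (lowest row total 132), 6 used value columns and 0 unused. In R 4.3.3, edgeR 4.0.16 (TMM, filterByExpr, glmQLFit and glmQLFTest, 3 genotype means over all 6 libraries) gave log2 fold changes and p-values, adjusted by Benjamini-Hochberg over all rows; a call is an adjusted p under 0.05. SE is the fold change divided by the root of the test's F. Replicate numbers were compared in a genotype plus number fit. DESeq2 1.42.0, limma 3.58.1 (voom), other scalings, filters, subsets and a replicate block were alternatives; scripts were tested on simulated data with known changes.

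Members, lists and tests were chosen with earlier results of these data known. Named were members called in any comparison, the 4 lowest unadjusted p per direction and comparison, the 5 highest and 3 lowest by mean CPM, and a set fixed by role. EIF2AK1, EIF2AK3-DT, EIF2S3, EIF3F and the members listed by name alone fall outside this rule and were chosen after their values were seen. Coordinates, start sequences and gene types come from RefSeq (GRCh38.p14), where all 65 members matched.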

Additional observations from a re-analysis of the deposited data

How the results depend on the processing

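Between genotypes the count of called members stayed at 0 under every other scaling, filter, tool and subset of groups, and was 0 to 1 with single libraries left out, the 1 being EEF1B2 without wild-type replicate 1 in the 3 comparisons with wild-type. Both other filters kept all 16199 rows, as the main one did, so their fits repeat the main fit and check nothing further. The member medians ranged from -0.072 to 0.034 in hemizygous cells, from -0.061 to 0.036 in homozygous cells and from -0.054 to 0.055 for the mean of both mutants with single libraries left out. Between replicate numbers, 0 members were called without both wild-type libraries and 0 without both hemizygous libraries, and the member median was -0.012 with upper-quartile scaling and -0.0065 with library totals; the cause was not tested.

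The labels repeat the replicate numbers 1 and 2 in each genotype without saying that they mark a shared batch. Replicate differences correlated across 15130 rows at 0.77 (wild-type and hemizygous), 0.38 (wild-type and homozygous) and 0.50 (hemizygous and homozygous). Across the 65 members the Pearson correlations were 0.12, 0.24 and 0.70 in the same order. All of these are descriptions over genes. The wild-type difference of EEF1B2, -3.77, was the largest in size of any member, while its hemizygous value was 0.62 and its homozygous value -0.04. The member correlations that involve wild-type may rest largely on this row, and they were not computed without it. With the replicate block 0 members were called in any genotype comparison, and the medians were -0.00 (hemizygous), -0.04 (homozygous), -0.03 (mean of both mutants) and 0.01 (homozygous against hemizygous).

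Over the 38 named genes the alternatives changed the sign of 46 of 574 values in hemizygous and 37 of 574 in homozygous cells against wild-type, none of them a call. Between replicate numbers 34 of 384 values lost a call and 15 gained one. These totals include both other filters, whose values repeat the main fit. Adding copies to the parent rows was chosen after the data were seen. The 11 members under 10 CPM rest on the fewest counts.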

Other observations

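The eIF4E inhibitors that the name rule drops were measured as well. EIF4EBP1 was at 86.8 and 103 CPM in wild-type, 71.0 and 87.9 CPM in hemizygous and 76.8 and 95.2 CPM in homozygous libraries, and was called lower in replicate 1 at -0.29 (SE 0.07, adjusted p = 0.0333 in edgeR's test), opposite to EIF4E. EIF4EBP2 was at 424 and 406 CPM, 485 and 385 CPM, and 428 and 365 CPM, and differed by 0.21 (SE 0.08, adjusted p = 0.110 in edgeR's test). Neither was called between genotypes. EIF4ENIF1, the eIF4E transporter, was among the steadiest rows of the family, at 33.3 and 34.8 CPM, 33.3 and 32.8 CPM, and 34.6 and 33.9 CPM.

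Rows of processed copies held a large part of the counts of some members and almost none of others. Copies held 4.05% to 5.07% of the joint counts of EEF1A1 and its copies, 14.6% to 16.7% for EIF4E and 21.0% to 89.3% for EEF1B2. EEF1A1P5 alone was at 534 and 368 CPM in wild-type, 468 and 396 CPM in hemizygous and 437 and 345 CPM in homozygous libraries. It was called higher in replicate 1 at 0.37 (SE 0.08, adjusted p = 0.0264 in edgeR's test), while EEF1A1 was at 0.13 and was not called. How many of these reads belong to the parent genes was not tested.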
